A study of Mus musculus with 2 samples.

Results

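Neurexins, neuroligins and LRRTMs are adhesion proteins that join the presynaptic and postsynaptic membranes of neurons. Described here are 9 genes of these families, taken by their listed symbols: the neurexins Nrxn2 and Nrxn3, the neuroligins Nlgn1, Nlgn2 and Nlgn3, and the leucine-rich repeat proteins Lrrtm1, Lrrtm2, Lrrtm3 and Lrrtm4. All 9 were found, out of 55536 mouse genes, with 65 of 141864 annotated transcripts, so sums over a family cover these listed genes. The samples were 2 total RNA-seq libraries of adult female 5xFAD/CAST mice, labelled as a layer of the hippocampus at 8 to 10 months of age. 5xFAD mice carry human transgenes with familial Alzheimer mutations under the neuronal Thy1 promoter, and CAST is a wild-derived strain. Both libraries form 1 group, biological replicates 1 and 2, and no wild-type or other control was analysed here. They share 1 donor record in the labels, so separate animals are not certain and every SD below (n = 2) is the spread between these 2 samples. Replicates 1 and 2 held 27816845 and 32316737 expected counts, which are reads split among the features they match. Of the counts on mouse genes, the 9 genes took 0.140% and 0.148%. Neuronal markers were abundant, with medians over 4 genes of 397 and 421 TPM in replicates 1 and 2, and the hippocampal subfield markers Wfs1, Rgs14 and Prox1 were all detected. TPM is abundance per transcript length, scaled to the same total in each library.

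Neurexins sit mainly in the presynaptic membrane and bind neuroligins, LRRTMs and secreted proteins such as cerebellins across the cleft. Each neurexin gene makes long (alpha) and short (beta) proteins from separate starts, and several alternative segments are spliced in or out. Segment 4 lies in the last laminin-type domain that both forms share: Lrrtm1 and Lrrtm2 bind neurexins without it, whereas cerebellins bind neurexins that hold it. Neuroligins are postsynaptic receptors related to cholinesterases, and their inserts A and B alter which neurexin forms they bind. Nlgn1 is known mainly from excitatory synapses, Nlgn2 from inhibitory synapses and Nlgn3 from both.

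The alternative coding segments carry the transcript results, and segment 4 of Nrxn3 and the neuroligin inserts are shown for that reason. They were read from the GENCODE M21 transcripts of the mm10 build, 5′ to 3′ along the transcript. Capitals mark the segment and lower case the 12 flanking bases of the spliced transcript on each side.
Nrxn3 segment 4: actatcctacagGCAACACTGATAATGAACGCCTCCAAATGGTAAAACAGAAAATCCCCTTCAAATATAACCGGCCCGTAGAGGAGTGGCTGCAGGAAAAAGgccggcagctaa
Nlgn1 insert A: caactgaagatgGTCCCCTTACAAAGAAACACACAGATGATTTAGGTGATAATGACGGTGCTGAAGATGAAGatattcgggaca
Nlgn1 insert B: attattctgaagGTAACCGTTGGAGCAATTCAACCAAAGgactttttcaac
Nlgn2 insert A: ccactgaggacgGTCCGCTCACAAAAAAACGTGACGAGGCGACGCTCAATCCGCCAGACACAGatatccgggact
Nlgn3 insert A1: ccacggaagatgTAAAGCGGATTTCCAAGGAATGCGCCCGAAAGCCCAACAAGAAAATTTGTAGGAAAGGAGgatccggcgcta
Nlgn3 insert A2: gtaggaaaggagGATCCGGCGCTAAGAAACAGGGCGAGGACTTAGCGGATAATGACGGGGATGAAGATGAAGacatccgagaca

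All of these segments are coding and a multiple of 3 bases long, so each can be left out with the reading frame kept. Segment 4 of Nrxn3 spans 90 bases (chromosome 12, 90199147 to 90199236, plus strand). Insert A of Nlgn1 (chromosome 3, 25920178 to 25920237, minus strand) and insert A2 of Nlgn3 (chromosome X, 101307075 to 101307134, plus strand) have 60 bases each and matched at 43 positions. Insert A1 of Nlgn3 (chromosome X, 101303072 to 101303131, plus strand) is as long but matched A2 at 19 positions and Nlgn1 insert A at 16. Insert A of Nlgn2 has 51 bases (chromosome 11, 69830563 to 69830613, minus strand), and insert B of Nlgn1 has 27 bases (chromosome 3, 25439865 to 25439891, minus strand).

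All 9 genes reached 1 TPM in both libraries, a level that 60.2% of 22015 nuclear protein-coding genes reached, and all 9 also reached 5 TPM. Nrxn2 was the highest of the 9, with 174 and 187 TPM in replicates 1 and 2 (180.4 ± 8.93). This placed it at percentile 97.4 of the 13251 protein-coding genes detected. Nlgn2 followed with 72.8 and 87.8 TPM (80.3 ± 10.6), and Nrxn3 with 79.3 and 76.0 TPM (77.6 ± 2.30). The ranges of Nlgn2 and Nrxn3 overlapped and their order differed between the replicates. Nlgn3 had 61.2 and 72.0 TPM, Nlgn1 38.5 and 42.9 TPM, and Lrrtm1 36.8 and 40.8 TPM, with Nlgn1 and Lrrtm1 overlapping. Below them Lrrtm4 had 24.3 and 25.6 TPM and Lrrtm2 15.1 and 16.2 TPM. Lrrtm3 was lowest at 7.95 and 9.62 TPM, which is percentile 33.0. The median over the 9 genes was 38.5 and 42.9 TPM in replicates 1 and 2, against 15.3 and 15.3 TPM over the detected protein-coding genes.

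**Figure D1:**
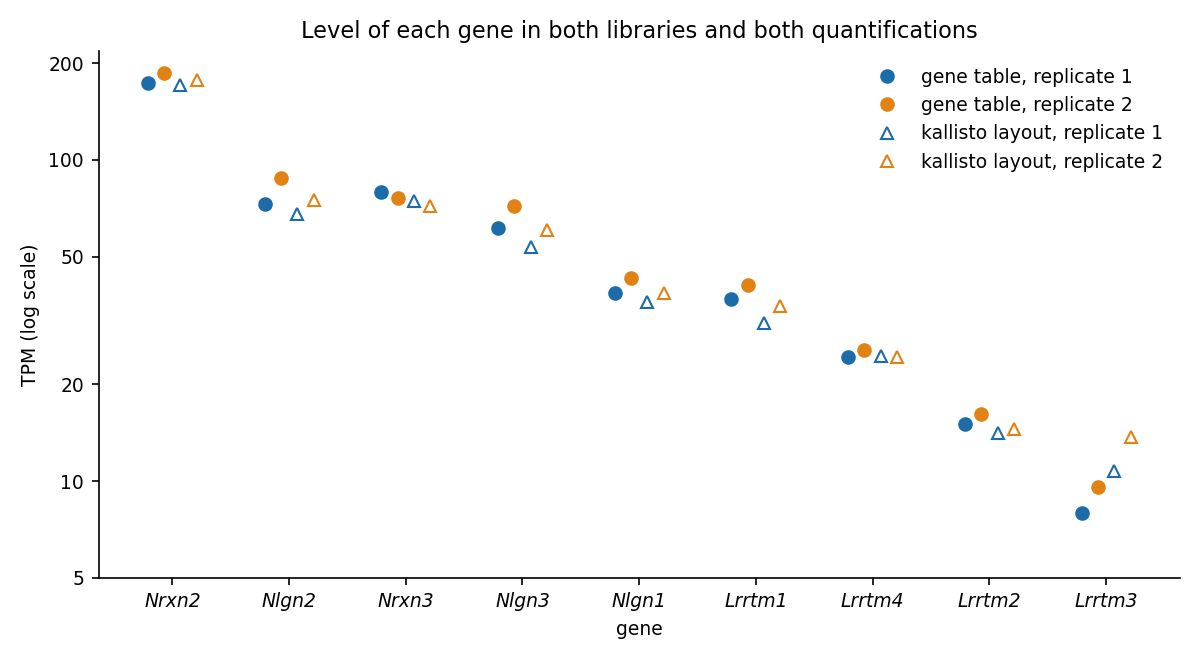
TPM of the 9 genes on a log axis; circles are the gene table and triangles the kallisto-layout table summed to genes, blue for replicate 1 and orange for replicate 2. Nrxn2 stood alone at 174 and 187 TPM in the gene table, and Lrrtm3 was the only gene whose triangles lay above its circles in both replicates.

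Summed over the listed genes, the neurexins held 253 and 263 TPM, the neuroligins 173 and 203 TPM, and the LRRTMs 84.2 and 92.2 TPM. The LRRTMs thus made up 16.5% of the TPM of the 9 genes in each replicate. A second quantification of the same libraries, deposited in the column layout of kallisto, kept the order of the genes but for Nlgn2 and Nrxn3. The gene table gave Lrrtm3 8.79 ± 1.18 TPM and the kallisto layout gave it 12.3 ± 2.12 TPM, a log2 ratio of -0.48. Over the 8392 protein-coding genes that averaged 10 TPM or more the median log2 ratio of the tables was 0.08. Lrrtm3 itself lay below that minimum in the gene table and was not among them. The other 8 genes lay between 0.03 and 0.23.

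Nrxn2 (ENSMUSG00000033768.17; chromosome 19, 6418731 to 6544169, plus strand) had more TPM on its short class than on its long class. Its 8 transcripts with an annotated full coding sequence fall into 6 long ones, with the start codon at position 6428049, and 2 short ones, with the start codon at position 6498279. The short class held 71.3 and 77.6 TPM and the long class 39.9 and 41.8 TPM. Short transcripts were therefore 64.1% and 65.0% of this total (64.6% ± 0.617), and in the kallisto layout 61.1% and 61.5%. By expected counts, which are not divided by length, they were 51.8% and 52.9%. Nearly all of the short class lay on Nrxn2-202, which alone took 40.7% and 41.5% of the TPM of the gene. Nrxn2-202 has 3503 nucleotides, none of whose 31-base words is its own, so its level comes from the joint assignment of reads that match several transcripts.

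In Nrxn3 (ENSMUSG00000066392.11; chromosome 12, 88722876 to 90334935, plus strand) the long class led instead. It held 31.5 and 32.7 TPM, from the coding Nrxn3-205 and from Nrxn3-208, which is annotated as a target of nonsense-mediated decay. A class with an internal start codon held 10.1 and 10.6 TPM, and the short class 7.10 and 5.63 TPM. Short transcripts made up 14.6% and 11.5% (13.0% ± 2.17) of the 3 classes in Nrxn3. That share was below the 64.6% ± 0.617 of Nrxn2 by far more than either spread between replicates. These spreads leave out the uncertainty of read assignment. The Nrxn3 classes also include transcripts annotated for nonsense-mediated decay, and the Nrxn2 classes do not. With coding transcripts only, the short share of Nrxn3 was 17.8%. Nrxn3 gave 15.2% and 11.3% in the kallisto layout and 6.08% and 4.58% by expected counts, below the Nrxn2 value on each scale.

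RefSeq (build GRCm38.p6) has windows from 250 bases before to 50 bases after a start for 6 of the 9 genes. Those of Nrxn3 include the start of the long Nrxn3-205 and that of the short class. Nrxn3-208, the other transcript of the long class, starts upstream at position 88723109 and has none. The windows at the start of Nrxn3-205 (chr12:88794254-88794553, plus strand) and at the shared start of the short Nrxn3-202 and Nrxn3-203 (chr12:89812233-89812532, plus strand) are printed 5′ to 3′, with each CG dinucleotide in capitals.
Nrxn3 long start: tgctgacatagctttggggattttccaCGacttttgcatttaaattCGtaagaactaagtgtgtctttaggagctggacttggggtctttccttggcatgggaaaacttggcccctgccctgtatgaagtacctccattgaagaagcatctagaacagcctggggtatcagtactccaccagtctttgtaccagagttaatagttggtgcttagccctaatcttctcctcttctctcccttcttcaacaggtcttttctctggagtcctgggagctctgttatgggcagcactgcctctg
Nrxn3 short start: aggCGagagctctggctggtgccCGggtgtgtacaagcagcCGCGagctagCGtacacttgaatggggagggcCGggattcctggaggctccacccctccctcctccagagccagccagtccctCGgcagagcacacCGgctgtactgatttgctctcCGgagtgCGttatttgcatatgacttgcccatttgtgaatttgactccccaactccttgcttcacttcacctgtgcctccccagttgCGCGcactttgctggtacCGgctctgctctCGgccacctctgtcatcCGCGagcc

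The window of the long start holds 2 CG dinucleotides and that of the short start 16, against a median of 7 over 32851 windows of the same length. The long start belongs to Nrxn3-205 alone, at 24.8 and 26.3 TPM, and the short start to 7.10 and 5.63 TPM. Of these 2 windows, the one with more CG thus had less RNA in both libraries. Another Nrxn3 window, at the start of Nrxn3-201 and Nrxn3-211, held 6 CG and had 17.2 TPM in both libraries. The window at the start of Nlgn2-202 held 26 CG and had 59.9 and 63.4 TPM. More CG thus did not go with less RNA across all windows of these genes. TATAAA, searched on both strands, was in neither of the 2 printed windows, and 13.6% of all windows hold it. A match or its absence describes these letters only. Whether either of these annotated Nrxn3 starts is a true start of transcription was not tested. Other annotated transcripts begin upstream of the Nrxn3-205 start at 88794504 and run past it, such as Nrxn3-206 from 88725009 to 88795115. The start of Nrxn3-205 is thus not the first annotated start of this region. The CG counts of the 2 printed windows therefore describe their letters and not the promoters of the 2 classes.

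Over all classes together, most neurexin TPM that spans the place of segment 4 included it, although not in every class. Of the TPM on Nrxn2 transcripts that span its place, 79.5% and 79.3% held it (79.4% ± 0.130), and in Nrxn3 74.1% and 73.4% did (73.7% ± 0.510). By expected counts the shares were 73.8% and 73.3% in Nrxn2 and 83.9% and 82.7% in Nrxn3, so the order of the 2 genes depended on the scale.

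As assigned to the annotated transcripts, the 2 genes differed in which class held the segment. In Nrxn2 the short class was almost wholly with segment 4, at 70.9 and 77.4 TPM with it against 0.34 and 0.19 TPM without it. The long class of Nrxn2 had 17.4 and 17.2 TPM with the segment against 22.5 and 24.6 TPM without it, or 43.6% and 41.2% with it. In Nrxn3 the short class was the reverse, at 0.41 and 0 TPM with the segment against 6.69 and 5.63 TPM without it. In the kallisto layout the short Nrxn3 share with the segment was 17.5% and 7.94%, below the other classes of both genes that hold both forms. The internal class of Nrxn3 had 4.20 and 3.19 TPM with the segment against 5.92 and 7.39 TPM without it. All of the TPM without it lay on 1 transcript annotated as a target of nonsense-mediated decay. The coding transcripts of the internal class all hold the segment.

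**Figure D2:**
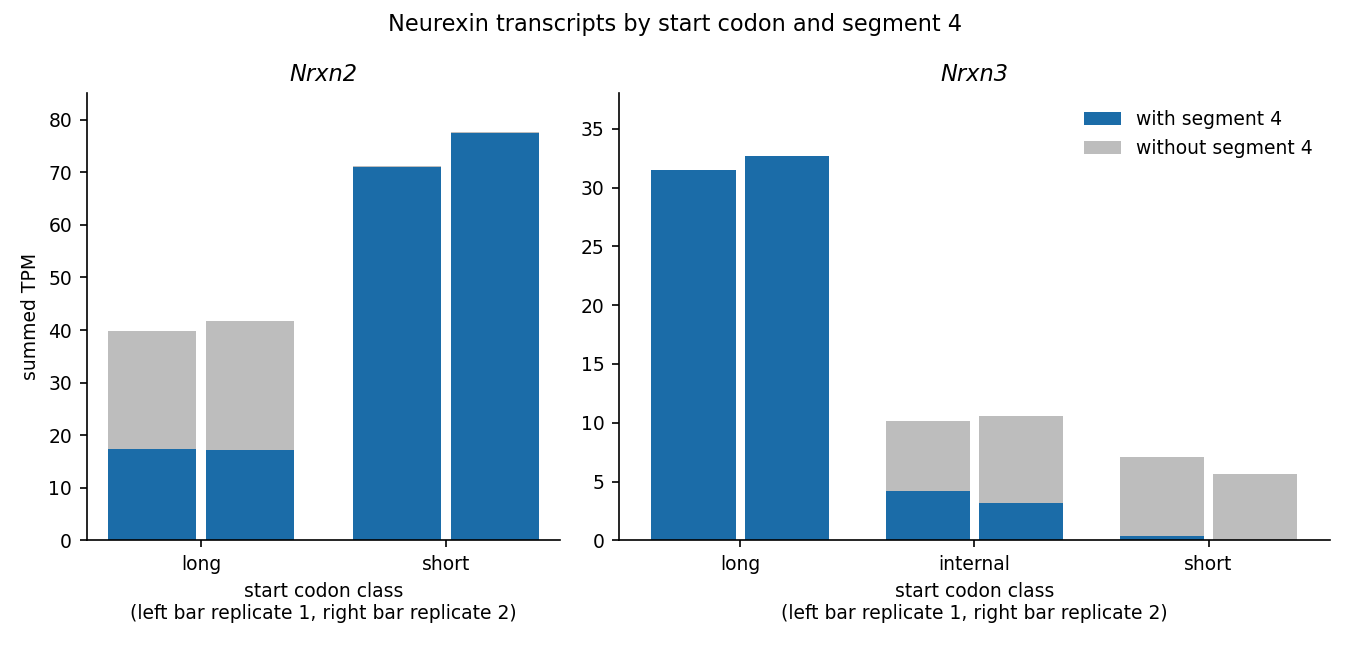
Summed TPM of Nrxn2 and Nrxn3 transcripts by start codon class, split into those with segment 4 (blue) and without it (grey); the left bar of each pair is replicate 1 and the right bar replicate 2, and the 2 panels have their own linear axes. The short class of Nrxn2 was blue at 70.9 and 77.4 TPM, whereas the short class of Nrxn3 was mostly grey at 6.69 and 5.63 TPM.

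These contrasts are tied to the annotated combinations of exons. Both Nrxn3 transcripts of the long class hold segment 4, so its 100% could not have been otherwise. In Nrxn2 the only short transcript without the segment is Nrxn2-203. It ends at 6544169, against 6533217 for Nrxn2-202, and has 1828 words of its own. Short Nrxn2 RNA that lacks the segment but has the end of Nrxn2-202 has no annotated transcript. The share of the short Nrxn2 class is thus set in part by the annotation. Nrxn2-202 and Nrxn2-203 share 1456 bases and differ in 2047 bases of Nrxn2-202 and 1829 of Nrxn2-203, and Nrxn2-201 and Nrxn2-204 differ in 1154 and 600 bases. The 2 short Nrxn3 transcripts share all 2699 bases of Nrxn3-203, with 955 bases found only in Nrxn3-202. Reads from other parts of these transcripts, their ends included, therefore enter the shares beside reads from the segment.

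Nlgn1 (ENSMUSG00000063887.13; chromosome 3, 25426215 to 26332460, minus strand) was spread over 5 transcripts. Nlgn1-203, which lacks both inserts, had the most, with 13.1 and 17.7 TPM. Nlgn1-201 and Nlgn1-205, which hold both inserts, had 7.08 and 10.3 TPM and 4.98 and 5.56 TPM. Nlgn1-204, a transcript with a retained intron, had 9.30 and 9.43 TPM. Inserts A and B occur in the same annotated transcripts, so they have 1 share between them: 41.3% and 47.3% with the inserts by TPM (44.3% ± 4.23) and 61.7% and 67.9% by expected counts. The transcripts with the inserts include Nlgn1-205, the longest at 11807 nucleotides, which weighs more in counts. Nlgn1-201 and Nlgn1-203 differ in 1707 and 361 bases, so reads from outside the inserts also enter this share. RNA with only 1 of the inserts has no annotated transcript.

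Nlgn1-201 and Nlgn1-202 share 4272 bases and differ only by 87 bases, the summed length of both inserts. Replicate 1 listed Nlgn1-202 at 4.01 TPM and replicate 2 listed it at 0. Its expected count of 328 in replicate 1 carried a posterior SD of 116 counts, which measures how uncertain the assignment of its reads was, and its 0 in replicate 2 carried one of 44.0 counts. The kallisto layout also gave it 8.62% of the gene in replicate 1 and 0 in replicate 2. The 2 replicates thus differed in this transcript within a gene that stood at 38.5 and 42.9 TPM.

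Nlgn2 (ENSMUSG00000051790.15; chromosome 11, 69823122 to 69837784, minus strand) lay mostly on Nlgn2-202, with 59.9 and 63.4 TPM, and on Nlgn2-201, with 9.15 and 13.1 TPM. Both hold insert A and both have a coding length of 2508 bases. Transcripts with insert A made up 96.2% and 96.0% by TPM (96.1% ± 0.124) and 99.5% and 99.5% by expected counts. The only transcript without it, Nlgn2-203, is an incomplete model of 784 nucleotides that had 2.73 and 3.17 TPM. Nlgn2-204, a retained-intron fragment of 355 nucleotides, had 1.06 and 8.13 TPM on 5.31 and 46.5 counts, and was at 0 in both replicates of the kallisto layout.

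Nlgn3 (ENSMUSG00000031302.16; chromosome X, 101299168 to 101325963, plus strand) included insert A1 rarely and A2 often. A1 was in 5.54% and 4.90% by TPM (5.22% ± 0.447) and in 8.88% and 8.31% by expected counts. A2 was in 52.9% and 48.9% by TPM (50.9% ± 2.89) but in 84.3% and 82.0% by expected counts. All transcripts without A2 come down to Nlgn3-203, an incomplete model of 1852 nucleotides with 27.5 and 35.5 TPM on 948 and 1392 counts. The complete Nlgn3-201, with A2 alone, has 8465 nucleotides and had 27.7 and 30.5 TPM on 4559 and 5712 counts. Nlgn3-206, with A1 and A2, had 3.24 and 3.40 TPM.

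**Figure D3:**
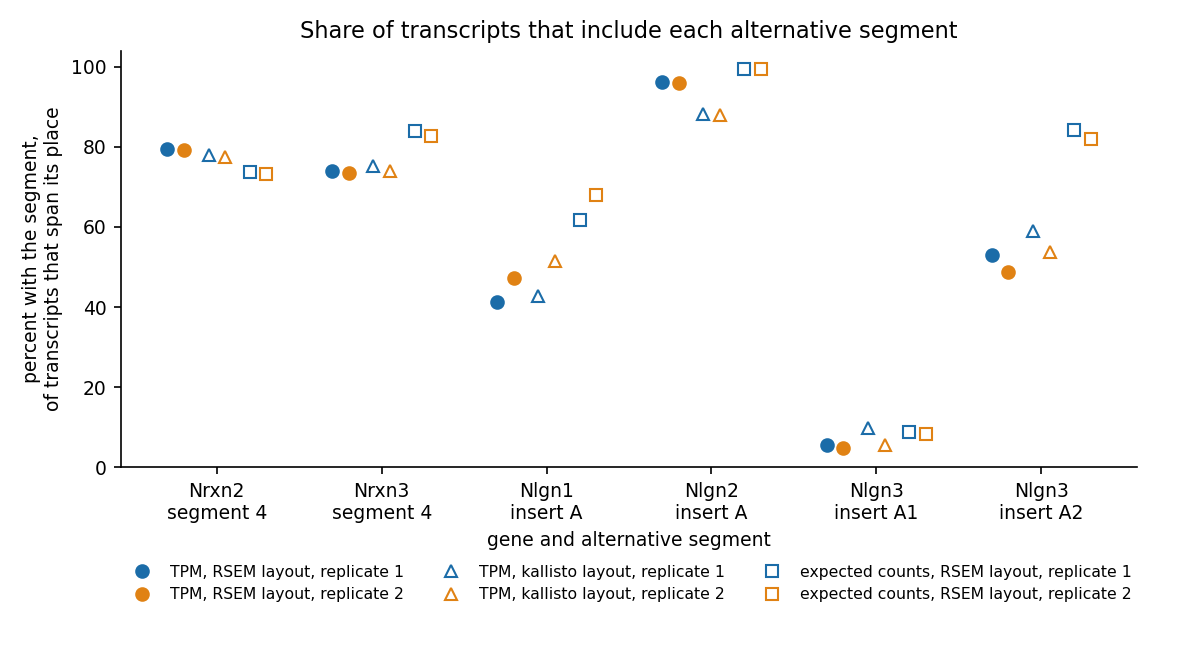
Percent of transcripts that include each alternative segment, among those of the gene that span its place, by TPM in the RSEM layout (circles), TPM in the kallisto layout (triangles) and expected counts (squares); blue is replicate 1 and orange replicate 2. Insert A of Nlgn2 lay at 96.2% and 96.0% by TPM and A1 of Nlgn3 at 5.54% and 4.90%, whereas A2 of Nlgn3 stood apart by scale, near 50.9% by TPM and 83.2% by counts.

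Among the LRRTMs, which are postsynaptic and each bind neurexins or heparan sulfate proteoglycans, 3 lie inside an alpha-catenin gene on the other strand. Lrrtm1 (ENSMUSG00000060780.2; chromosome 6, 77242689 to 77257791, plus strand) lies in Ctnna2, and had 36.8 and 40.8 TPM beside 34.7 and 36.1 TPM for Ctnna2. Lrrtm2 (ENSMUSG00000071862.3; chromosome 18, 35209003 to 35215024, minus strand) lies in Ctnna1, and had 15.1 and 16.2 TPM beside 31.3 and 25.8 TPM for Ctnna1. Lrrtm3 (ENSMUSG00000042846.8; chromosome 10, 63928472 to 64090277, minus strand) lies in Ctnna3, and had 7.95 and 9.62 TPM beside 2.10 and 1.37 TPM for Ctnna3. The LRRTM gene was above its host in both replicates for Lrrtm1 and Lrrtm3 and below it for Lrrtm2, but the Lrrtm1 and Ctnna2 ranges lay close together and the kallisto layout turned their order, with means of 33.1 TPM for Lrrtm1 and 33.2 TPM for Ctnna2. Lrrtm4 (ENSMUSG00000052581.13; chromosome 6, 80018877 to 80810143, plus strand) lies on the same chromosome as Lrrtm1.

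Lrrtm1 had 22.4 and 21.4 TPM on Lrrtm1-202 and 9.77 and 13.3 TPM on Lrrtm1-203. These have the same coding length of 1566 bases and differ by 27 and 4 bases, so their split is uncertain, with posterior SDs of 82.6 to 110.4 counts. Lrrtm1-201, annotated for nonsense-mediated decay with the same coding length, took 12.5% and 15.0% of the TPM. Lrrtm2 lay mostly on Lrrtm2-201, at 76.2% and 77.1%, and Lrrtm2-203, which has a coding length of 804 bases against 1545 bases in Lrrtm2-201, took 16.9% and 14.4%.

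Lrrtm3 was the gene whose makeup was least settled. Its single transcript with a full coding sequence, Lrrtm3-201, took 53.1% of the TPM in replicate 1 and 32.1% in replicate 2, and the retained-intron transcript Lrrtm3-204 took 46.9% and 57.0%. In the kallisto layout Lrrtm3-201 took 32.0% and 20.3%, and Lrrtm3-202, a noncoding transcript of 545 nucleotides, 28.9% and 32.8%. Lrrtm3-202 was at 0 and 1.05 TPM in the gene-table quantification. The gene had 485 and 559 expected counts, the fewest of the 9.

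Lrrtm4 has coding sequences that end in 2 ways. The 3 transcripts with the long end, such as Lrrtm4-208 with a coding length of 1773 bases, held 10.4 and 12.4 TPM, and the 3 with the short end, such as Lrrtm4-206 with 1557 bases, held 10.4 and 8.82 TPM. The long end was thus 54.3% ± 5.99 by TPM but 40.7% and 49.0% by expected counts, so neither end led on both scales.

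For 6 of the 9 genes the leading transcript by TPM was the same in both libraries and both layouts, the exceptions being Nlgn3, Lrrtm3 and Lrrtm4. Transcripts with a complete coding sequence, meaning coding and not marked as partial, took between 42.6% (Lrrtm3) and 92.3% (Lrrtm2) of the TPM of a gene. The Lrrtm2 value includes 15.6% on Lrrtm2-203, whose coding length is 804 bases against 1545 in Lrrtm2-201. By expected counts such complete transcripts took at least 80% in both libraries in 7 of the 9 genes, all but Nrxn3 and Lrrtm3. In Nrxn2, 7 transcripts under 1000 nucleotides took 33.3% and 34.2% of the TPM but 5.63% and 5.75% of the counts. The largest of these, a processed transcript of 576 nucleotides, had 32.5 and 36.2 TPM. In Nrxn3, 4 such transcripts took 23.4% and 22.0% of the TPM and 2.43% and 2.11% of the counts, led by Nrxn3-211 at 13.0 and 14.0 TPM. TPM of these genes, Nrxn2 at the head of the order included, thus rests in part on short noncoding models. Nrxn2 also had the most expected counts, 10051 and 12136. Transcripts annotated for nonsense-mediated decay took 15.9% and 18.1% of Nrxn3 TPM and 22.3% and 23.8% of its counts.

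**Figure D4:**
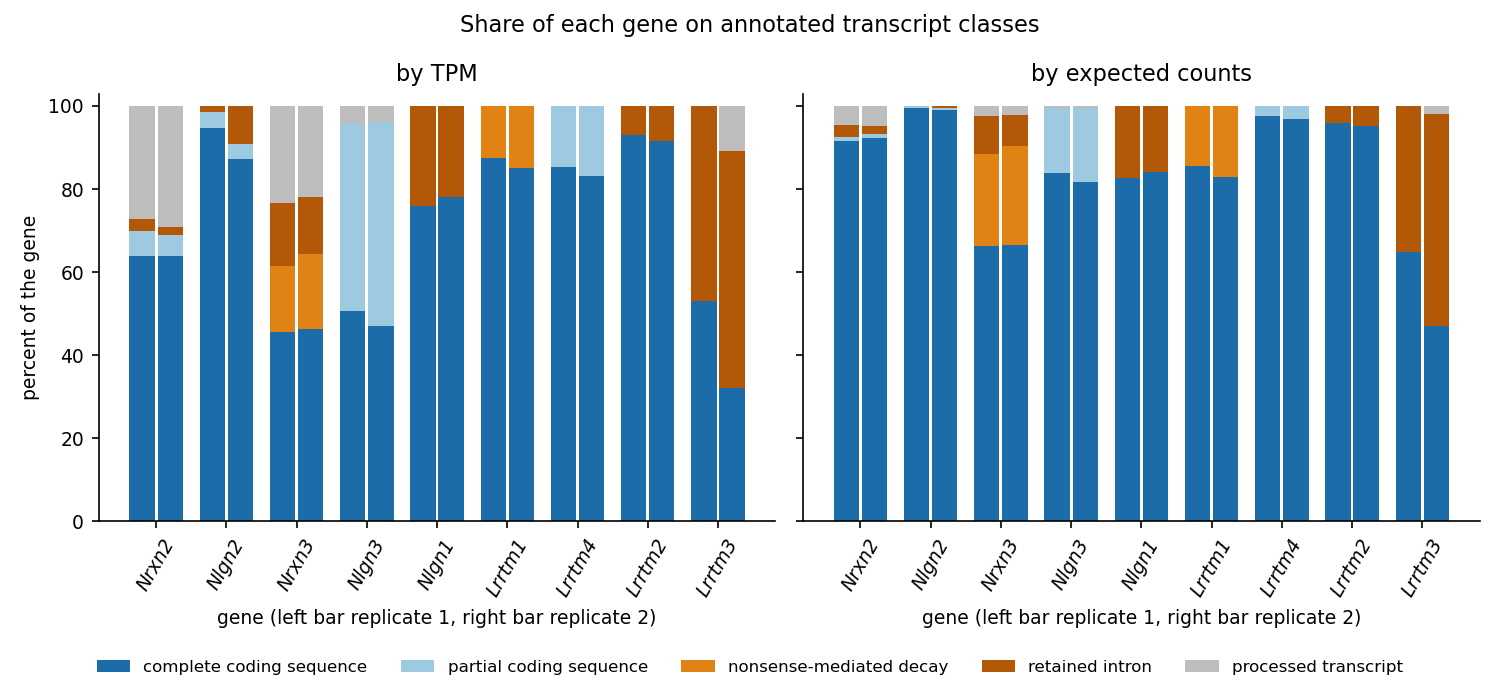
Share of each gene on 5 annotated transcript classes, by TPM in the left panel and by expected counts in the right panel; the left bar of each pair is replicate 1 and the right bar replicate 2. Processed transcripts (light grey) took 27.2% and 29.1% of Nrxn2 by TPM but 4.50% and 4.79% by counts, and the partial model of Nlgn3 (light blue) 45.0% and 49.2% against 15.6% and 17.9%.

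No pair of the 9 genes shares a 31-base word, so their reads are not exchanged among them at that length. Nlgn3 shares 41.7% of its words with other genes, 3796 of 9287 of them with the overlapping Gm21986, which was listed at 0.86 and 0.92 TPM. The posterior SD of the Nlgn3 count was 0.392% and 0.353% of the count. The other 8 genes share at most 0.234% of their words. Words found on the opposite strand of other genes made up 24.5% in Lrrtm4, 9.02% in Nlgn1 and 5.81% in Nrxn2, and the libraries were made with a directional kit per the labels.

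Between the replicates, the log2 ratio of replicate 1 over replicate 2 was small for every one of the 9 genes. After TMM scaling of the counts it was -0.17 for Nlgn3, -0.15 for both Lrrtm1 and Nlgn2, -0.13 for Nlgn1, -0.11 for Lrrtm2 and -0.080 for Nrxn2. Lrrtm3 at -0.013, Nrxn3 at -0.0097 and Lrrtm4 at 0.0044 were near 0, and their sign changed with the scaling or the table. None of the 9 passed 2-fold, a ratio that 2.66% of the 18906 genes averaging 10 or more counts passed. With 1 library on each side there is no test, and in bulk tissue fewer cells of a type and less RNA per cell cannot be told apart. The median over the 9 genes was -0.11, against -0.011 over all 18906 genes, whose median size without sign was 0.12.

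Markers of cell types also differed between the replicates. The 4 neuronal markers had a median log2 ratio of -0.13 and the 3 glutamatergic markers of -0.22, all 7 below 0, while the 3 GABAergic markers ranged from -0.085 to 0.064. The 3 oligodendrocyte markers had a median of 0.29 and the 3 astrocyte markers of 0.089, all above 0. Markers of oligodendrocyte precursors, microglia and endothelial cells lay between -0.24 and 0.14. The choroid plexus markers Ttr, Clic6 and Kcnj13 ranged from 0.83 to 1.55, and Ttr had 426 and 146 TPM in replicates 1 and 2. The part of these differences in the ratios of the 9 genes was not tested.

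**Figure D5:**
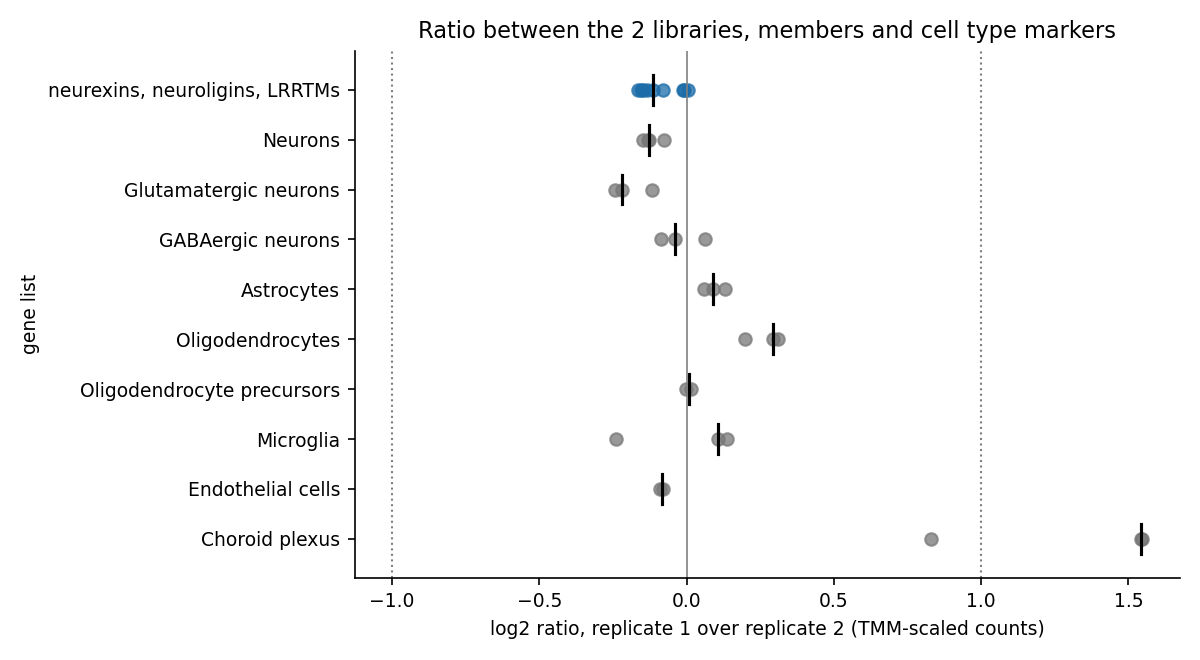
Log2 ratio of replicate 1 over replicate 2 for the 9 genes (blue) and for cell type markers (grey); each point is a gene, the black bar is the median of its list, and dotted lines mark 2-fold. The 9 genes lay between -0.17 and 0.0044, and the choroid plexus markers between 0.83 and 1.55.

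Ratios of TPM could be larger than those of counts. For Lrrtm3 the log2 ratio was -0.28 in TPM and -0.013 in scaled counts, and for Nlgn2 -0.27 and -0.15. Noncoding transcripts of both genes had more TPM in replicate 2, among them Lrrtm3-204 with 3.73 and 5.48 TPM, Lrrtm3-202 with 0 and 1.05 TPM, and Nlgn2-204 with 1.06 and 8.13 TPM. Their part in the ratios was not tested.

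The partners of these proteins were nearly all detected, at a level of 1 TPM that 60.2% of 22015 nuclear protein-coding genes reached in both libraries. All 16 neurexin-binding secreted and membrane partners reached 1 TPM. Their list median was 20.6 ± 0.573 TPM, against 15.3 TPM over the detected protein-coding genes. They were led by the latrophilin Adgrl1 at 112 and 126 TPM and the calsyntenin Clstn3 at 107 and 117 TPM, and the neurexophilin Nxph4 was lowest at 1.07 and 1.13 TPM. The cerebellins, which bind neurexins with segment 4, were among the lower genes, with Cbln2 at 6.45 and 5.62 TPM, Cbln4 at 3.80 and 4.70 TPM and Cbln1 at 3.52 and 4.78 TPM. These 3 were named after their values were seen.

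All 7 presynaptic cytoplasmic partners were detected, led by Epb41l1, a linker of membrane proteins to the cytoskeleton, at 138 and 143 TPM and the adaptor Apba2 at 88.1 and 102.8 TPM. Lin7a was lowest at 11.8 and 12.7 TPM. Of the scaffolds and regulators that bind neuroligins all 11 were detected. Dlg4, which encodes the excitatory scaffold PSD-95, had 302 and 321 TPM, and Mdga1, which blocks neuroligins from binding neurexins, was lowest at 19.9 and 22.8 TPM. All 5 LRRTM partners other than neurexins were detected, with the receptor phosphatases Ptprs at 260.1 and 266 TPM and Ptprd at 76.9 and 74.1 TPM, and the glypican Gpc5 lowest at 14.8 and 14.6 TPM.

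All 4 listed regulators of segment 4 splicing were detected. Khdrbs3, which encodes SLM2, a protein known to promote skipping of segment 4, had 140.0 and 143 TPM, and Ptbp2 had 52.1 and 49.0 TPM. Khdrbs2 was lowest at 6.91 and 6.53 TPM. Of 12 other synaptic organizers with leucine-rich repeats 11 were detected, led by Lrrc4b at 123 and 133 TPM. Lrrc4 was second by its mean, at 35.3 and 40.0 TPM, but overlapped Slitrk5 at 35.5 and 37.8 TPM, which was above it in replicate 1 and in the kallisto layout. Slitrk6, at 0.76 and 0.20 TPM, was the exception, and with a log2 ratio of 1.79 the only gene of these lists past 2-fold between the replicates. That ratio rests on 62 and 19 counts, and 2.66% of all genes averaging 10 or more counts passed 2-fold.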

How the data were processed

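Total RNA-seq was made of 2 libraries of 1 group, from 300 ng of RNA each with ERCC spike-ins, per the labels. Per the readme deposited with each library, the build was mm10 and the annotation GENCODE M21, with each library processed alone. The sources used here do not give the aligner, the programs or their versions. The authors deposited RSEM-style tables of genes and transcripts (expected counts, TPM, a posterior SD of the count and each transcript's percent of its gene) and a kallisto-style transcript table (estimated counts and TPM). Expected counts split reads among matching features, so near-identical transcripts are uncertain, and reads from CAST alleles were counted on mm10, whose effect was not tested. Each gene table also holds 26248 rows with numeric identifiers and 96 ERCC rows, which stayed out of gene statistics.

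Symbols, transcript classes, start codons and segments came from GENCODE M21. Shares are a transcript's TPM over the TPM of its gene, or over the transcripts that span a segment. Ratios used expected counts rounded to whole numbers, TMM in edgeR 4.0.16 (R 4.3.3) and a prior count of 2, for genes averaging 10 or more counts; the step was tested on simulated data. No hypothesis test was run. A count of 0 allows up to 3 counts, covering counting error only. DESeq2 1.42.0 size factors and the other alternatives are given in the closing section. Named are all 9 genes, transcripts at 5% or more of their gene, and the 2 highest and 1 lowest gene of each partner list. Of the items this rule names or shows, 2 are not reported here. The genes and lists were chosen with earlier results of these data known. 2 older symbols of a partner list were matched to the newer Car10 and Car11. Tables used Python 3.11.15, numpy 2.4.6 and pandas 2.3.3, and figures matplotlib 3.10.9.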

Additional observations from a re-analysis of the deposited data

How the results depend on the processing

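The 9 genes stayed detected at 0.5 and 5 TPM, in the kallisto layout and in each library alone, and none passed 2-fold under any scaling, prior count or table tried. The share of all genes past 2-fold was 9.58% with no count filter and 0.290% at a mean count of 100. The signs of the Lrrtm3, Nrxn3 and Lrrtm4 ratios were not stable under the scalings, of which spike-in scaling put all 9 below 0 and library size alone put 3 above 0. Kallisto-layout TPM gave family sums of 247 (neurexins) and 166 (neuroligins). TPM over nuclear protein-coding genes alone gave 577, 419 and 197 for neurexins, neuroligins and LRRTMs, since these genes hold less than the whole of the TPM. In the kallisto layout the shares were 61.3% for short Nrxn2, 60.4% for long Nrxn3, 77.7% and 74.6% with segment 4 for Nrxn2 and Nrxn3, 88.2% with insert A for Nlgn2, and 7.69% and 56.3% with A1 and A2 for Nlgn3. By expected counts they were 52.4% for short Nrxn2, 5.33% for short and 77.7% for long Nrxn3, 73.5% and 83.3% with segment 4 for Nrxn2 and Nrxn3, 64.8% with inserts A and B for Nlgn1, 99.5% for Nlgn2, 8.60% and 83.2% with A1 and A2 for Nlgn3, and 44.9% for the long Lrrtm4 end. With coding transcripts only, Nrxn3 gave 17.8% short, 71.8% long and 82.7% with segment 4. Counts weight a transcript by its length, by construction, and the cause of the differences between layouts was not tested. No paired analysis was possible because there is 1 group. With 2 libraries an SD is itself imprecise, and the shares of transcripts with no words of their own are limited by read assignment rather than depth.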
